A study of Mus musculus with 12 samples.

Results

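Mucolipins are cation channels of late endosomes and lysosomes. They belong to the transient receptor potential (TRP) superfamily and let calcium and other ions out of these compartments when a phosphoinositide of the endolysosomal membrane opens them. The remaining TRP families sit mostly in the plasma membrane: vanilloid channels (Trpv) respond to heat, stretch or osmotic pressure or carry calcium across epithelia, melastatin channels (Trpm) sense cold, magnesium or intracellular calcium, and canonical channels (Trpc) act downstream of receptors and calcium stores. The 10 genes described here are the mucolipins Mcoln1, Mcoln2 and Mcoln3, the vanilloid genes Trpv2, Trpv4 and Trpv6, the melastatin genes Trpm4, Trpm7 and Trpm8, and Trpc1. They were taken by symbol from the 39179 genes of the deposited table, and all 10 symbols matched a single Ensembl identifier. The list was drawn up with the difference between genotypes in these same libraries known, so the members count as chosen by their log2 difference between null and wild-type libraries, and their differences and calls are given as a description, with no p-value.

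RNA was sequenced from prostates of mice aged 4 months of a hybrid strain (129/SvImJ with C57Bl/6J), every one given paraquat, a redox-cycling herbicide used to provoke oxidative stress. There were 6 libraries from mice null (-/-) for the gene under study and 6 from wild-type (+/+) mice, and no untreated mice are among the libraries analysed here. The construct of the null allele is not described in the labels, and the labels do not tie libraries to individual mice. P-values therefore measure the spread between these libraries, which may be technical. Values are the deposited log2 values, whose log2 scale and scaling between libraries were inferred from the values, and each difference is null minus wild type on that scale.

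Depth recovered from the steps between high values was 14.7 M to 20.3 M reads in null libraries and 15.2 M to 21.6 M reads in wild-type libraries. Numbered in accession order, libraries 1 to 3 and libraries 4 to 6 of each genotype formed 2 closely similar sets. Libraries of the same set differed by a median of 0.0776 to 0.141 per gene, and those of different sets of 1 genotype by 0.274 to 0.352. The labels name no such sets. The whole table was therefore fitted with limma across the 12 libraries and again between the 4 set means. The words rose and fell are kept for genes outside the 10 that were called at an adjusted p under 0.05 in both fits. Across the 12 libraries limma called 65.9% of the 16197 genes tested, and between set means 4.09%. Scaling to library totals shifted the median difference of all genes to 0.37, against 0.05 as deposited, and the calls across the 12 libraries to 8611 higher and 2608 lower, against 5518 and 5152. Totals without the 50 most abundant genes gave a median of 0.20 and 6804 higher and 4034 lower. The olfactory receptor genes, taken as a family, served to show the floor of the scale: their 1013 genes had a median of 1.95 and a 95th percentile of 2.86. The luminal keratin genes Krt8 and Krt18 stood at 12.35 ± 0.09 and 13.32 ± 0.04 in null and at 12.64 ± 0.32 and 14.45 ± 0.30 in wild-type libraries (SD, n = 6 each), far above the floor. Transcripts of the seminal vesicle, a neighbouring gland, had a summed level of 16.83 to 21.42 over 8 genes in null and of 5.87 to 7.85 in wild-type libraries.

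Among the mucolipins, Mcoln2 and Mcoln3 were far lower in null prostates, while Mcoln1 differed by less than the spread between libraries. Mcoln1 encodes the ubiquitous lysosomal member, whose loss in humans causes mucolipidosis type IV. Mcoln2 encodes a member best known from endosomes of lymphocytes and macrophages. Mcoln3 encodes the member mutated in the varitint-waddler mouse, which is deaf and has a variegated coat. The promoter windows of the 3 genes are shown because their values separate 2 neighbouring genes that were lower together from a relative that was not. Each window runs from 250 bases before to 50 bases after the gene start in RefSeq, 5′ to 3′ on the coding strand, and capitals mark the only searched motif that was found in any of them, CACGTG, the core bound by TFEB and related factors of lysosomal genes.
Mcoln1, GRCm38.p6 chr8:3500269-3500568, plus strand: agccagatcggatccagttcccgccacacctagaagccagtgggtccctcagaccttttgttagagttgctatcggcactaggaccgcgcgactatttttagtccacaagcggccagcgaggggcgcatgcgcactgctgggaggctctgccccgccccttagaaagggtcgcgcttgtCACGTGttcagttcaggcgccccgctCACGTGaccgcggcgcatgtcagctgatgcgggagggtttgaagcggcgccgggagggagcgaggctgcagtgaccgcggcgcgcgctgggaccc
Mcoln2, GRCm38.p6 chr3:146149924-146150223, plus strand: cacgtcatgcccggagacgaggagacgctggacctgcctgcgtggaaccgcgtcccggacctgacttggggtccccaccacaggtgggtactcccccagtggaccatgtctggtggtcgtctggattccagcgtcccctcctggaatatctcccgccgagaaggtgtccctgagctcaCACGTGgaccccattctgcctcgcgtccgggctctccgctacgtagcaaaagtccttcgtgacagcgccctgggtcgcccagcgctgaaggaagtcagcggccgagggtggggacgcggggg
Mcoln3, GRCm38.p6 chr3:146121541-146121840, plus strand: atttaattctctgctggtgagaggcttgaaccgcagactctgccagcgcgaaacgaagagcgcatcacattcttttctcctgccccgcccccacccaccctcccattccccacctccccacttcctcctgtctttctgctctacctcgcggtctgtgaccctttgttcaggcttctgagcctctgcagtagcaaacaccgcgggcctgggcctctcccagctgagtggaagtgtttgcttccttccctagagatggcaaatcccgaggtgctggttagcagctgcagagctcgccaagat

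CACGTG reads the same on both strands. It occurred in 2 places in the Mcoln1 window, in 1 place in the Mcoln2 window and in none of the Mcoln3 window, against 7.15% of all 32851 promoter windows of this length that held it. Neither AGAACA, a half-site of steroid receptors including the androgen receptor, nor TAAGTA, a motif of NK-type homeodomain factors, was found on either strand of the 3 windows, and these occurred in 19.0% and 7.59% of all windows. Of the 9 members with a window, Trpm7 also held CACGTG, in 2 places. Trpv6 held AGAACA in 1 place and Trpm8 held TAAGTA in 1 place. Trpv2 held 1 TAAGTA site, shared by the overlapping windows of 2 of its 3 annotated starts, and AGAACA in the window of the remaining start. The windows of Mcoln2, Mcoln3 and Trpm8 begin past the gene starts in GENCODE M21 (146149833, 146117450 and 88277661), so those starts were not searched. A match describes these letters alone and was not tested for binding.

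Mcoln2 (ENSMUSG00000011008, GRCm38 chromosome 3, 146149833 to 146195513, plus strand) was at 6.39, 6.35, 6.20, 7.18, 7.28 and 7.16 in null libraries 1 to 6. It was at 11.38, 11.36, 11.24, 11.44, 11.35 and 11.36 in wild-type libraries 1 to 6. The groups did not overlap, the lowest wild-type library lay far above the highest null library, and the null libraries 4 to 6 were all above null libraries 1 to 3. The means were 6.76 ± 0.49 in null and 11.36 ± 0.06 in wild-type libraries (SD, n = 6 each), a difference of -4.60, which on the linear scale is 0.0413 of the wild-type level.

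Mcoln3 (ENSMUSG00000036853, chromosome 3, 146117450 to 146141806, plus strand) was at 3.49, 3.79, 3.07, 3.78, 4.09 and 4.05 in null libraries 1 to 6. In wild-type libraries 1 to 6 it was at 9.25, 9.26, 9.31, 8.47, 8.54 and 8.74. The groups did not overlap, and the null values lay close above the floor, with all 6 above 2.86. The means were 3.71 ± 0.38 in null and 8.93 ± 0.39 in wild-type libraries. The difference of -5.22 may understate the change, since low values are flattened. The sets moved in opposite ways in the 2 genotypes: libraries 4 to 6 were higher than 1 to 3 in null (3.97 against 3.45) and lower in wild type (8.58 against 9.28).

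Mcoln1 (ENSMUSG00000004567, chromosome 8, 3500457 to 3515232, plus strand) was at 9.49, 9.53, 9.57, 9.88, 9.74 and 9.81 in null libraries. In wild-type libraries it was at 9.62, 9.63, 9.65, 9.85, 9.78 and 9.74. The ranges overlapped, but null libraries 1 to 3 lay below every wild-type library and null library 4 above every one. The difference was -0.04, with means of 9.67 ± 0.16 in null and 9.71 ± 0.09 in wild-type libraries. Its sign depended on the setting: it was 0.03 with quantile normalization, 0.04 with upper-quartile scaling, 0.27 with library totals and 0.10 without null libraries 1 to 3.

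**Figure D1:**
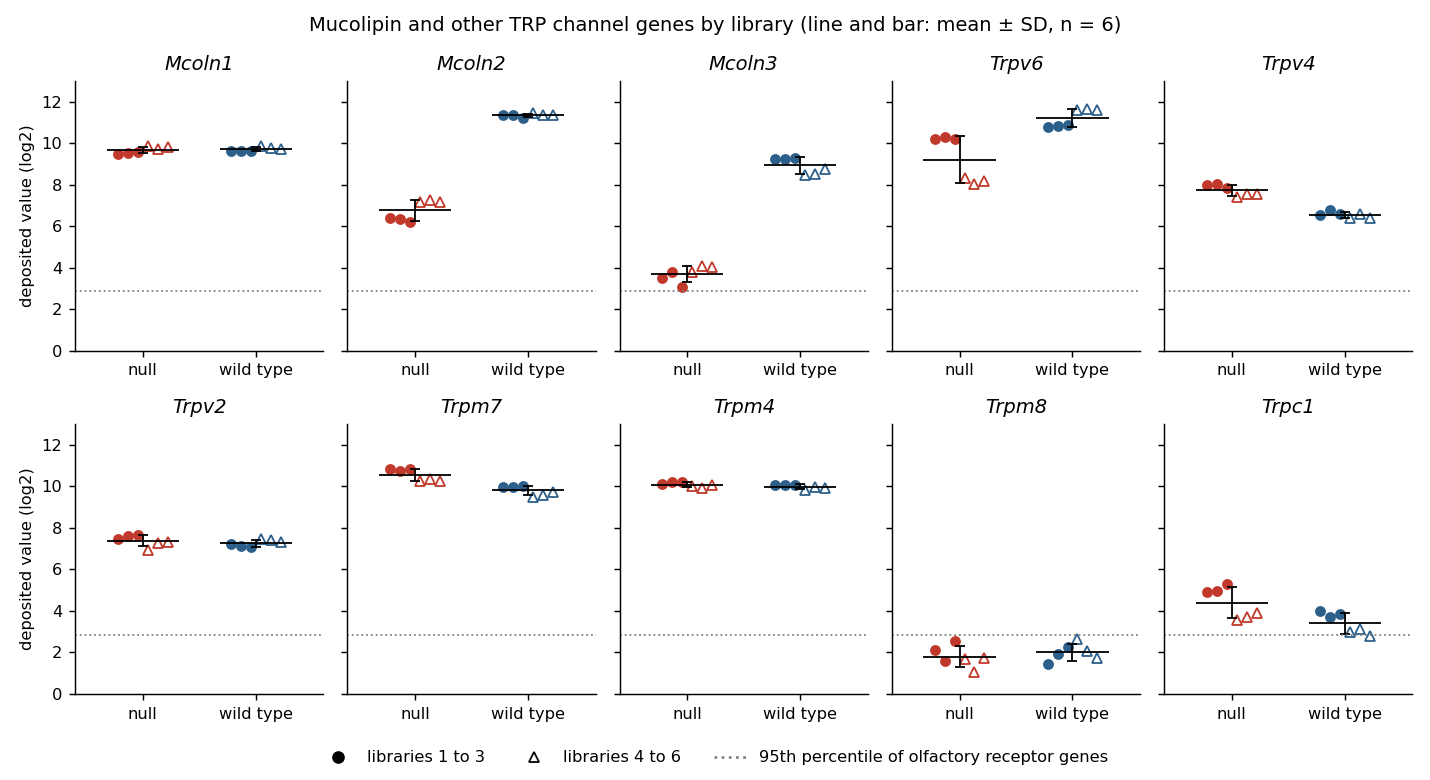
Deposited log2 values of the 10 genes in each library, null left of wild type, with filled circles for libraries 1 to 3, open triangles for libraries 4 to 6, and a line and bar for the mean ± SD (n = 6). The dotted line is the 95th percentile of olfactory receptor genes (2.86). Mcoln2 and Mcoln3 separate most widely, Trpv6 separates with a wide gap between the null sets, and Trpm8 lies under the dotted line in all 12 libraries.

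The make-up of the mucolipin transcripts differed accordingly. Per length of the longest annotated transcript, Mcoln1 gave 81.4% to 89.2% of the 3 mucolipins in null libraries and 17.7% to 20.8% in wild-type libraries. Mcoln2 gave 9.9% to 17.0% in null and 66.3% to 71.5% in wild-type libraries. Mcoln3 gave 1.0% to 1.6% in null libraries, where its value lies near the floor, and 7.7% to 14.6% in wild-type libraries. With the length of all annotated exons in place of the longest transcript, the share of Mcoln1 was 68.4% to 80.3% in null and 9.5% to 11.4% in wild-type libraries. That of Mcoln2 was then 17.8% to 28.7% in null and 71.8% to 79.0% in wild-type libraries, and that of Mcoln3 1.9% to 3.1% in null and 9.6% to 17.9% in wild-type libraries. Which of Mcoln1 and Mcoln3 had the larger mean share in wild-type libraries depended on the length: 19.4% and 11.2% by longest transcript, 10.5% and 13.7% by all exons. Under either length Mcoln1 was the leading mucolipin in all 6 null libraries and Mcoln2 in all 6 wild-type libraries.

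**Figure D2:**
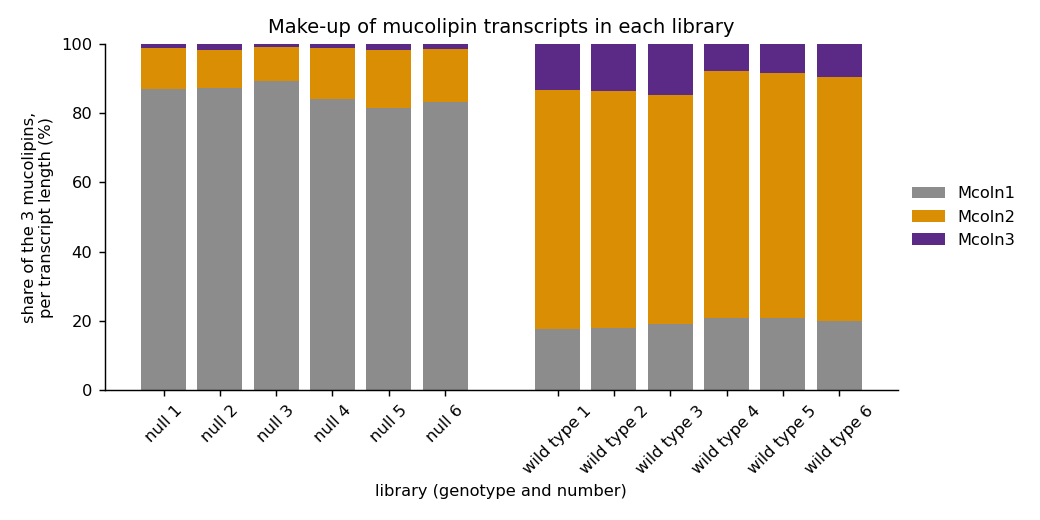
Share of each mucolipin gene in the summed level of the 3, per length of the longest transcript, in each of the 12 libraries (bars stack to 100%). Mcoln1 takes 81.4% to 89.2% of each null library and Mcoln2 66.3% to 71.5% of each wild-type library.

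Mcoln3 and Mcoln2 lie head to tail on the same strand of chromosome 3, with 8026 bases between the end of the first and the start of the second. Their neighbours within 500 kb are not members, and were tested. Of 16 protein-coding neighbours 12 were tested. Across the 12 libraries 4 were called higher and 7 lower in null (all genes: 34.1% higher and 31.8% lower), and between set means 0 were called (2 at an unadjusted p under 0.05; all genes: 4.09% called). The median difference of these neighbours was -0.25, against 0.05 for all genes tested. This lean depended on the scaling. With library totals 5 neighbours were called higher and 1 lower across the 12 libraries, with a median of 0.06. Totals without the 50 most abundant genes gave 4 higher and 4 lower, with a median of -0.10. The nearest tested gene on each side was Wdr63, which encodes an axonemal dynein-associated protein, with 4.82 ± 0.32 in null and 5.68 ± 0.44 in wild-type libraries (difference -0.85, SE 0.39, limma adjusted p = 0.00365 across the 12 libraries and 0.189 between set means), and Lpar3, a lysophosphatidic acid receptor gene, with 4.06 ± 0.36 in null and 4.86 ± 0.40 in wild-type libraries (difference -0.80, SE 0.39, adjusted p = 0.00632 and 0.214). Bcl10, a signalling adaptor gene, was at 9.13 ± 0.18 in null and 9.39 ± 0.06 in wild-type libraries. Ctbs, which encodes the lysosomal enzyme chitobiase, was at 8.02 ± 0.20 in null and 7.25 ± 0.23 in wild-type libraries. The differences of the 12 neighbours tested ran from -0.85 for Wdr63 to 1.03 for Ddah1, beside -4.60 and -5.22 for the mucolipin pair. Since the pair was chosen with its difference known, this gap is given as a description.

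**Figure D3:**
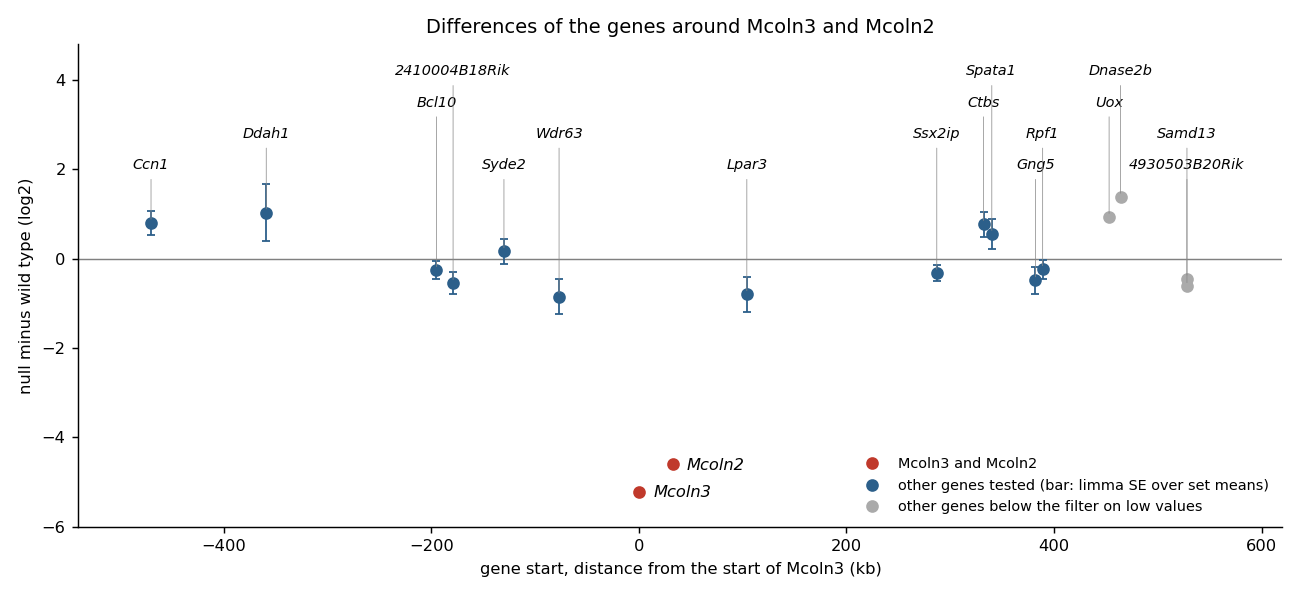
Difference (null minus wild type, log2) of Mcoln3, Mcoln2 and the protein-coding genes within 500 kb, by the distance of each gene's start from that of Mcoln3, with limma standard errors between set means for the genes tested. Mcoln3 lies at -5.22 and Mcoln2 at -4.60, and the neighbours tested lie at -0.85 to 1.03.

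Over all 16197 genes tested, 22 (0.136%) were lower in null by 4 or more. Mcoln3 ranked 11 and Mcoln2 ranked 15 from the lowest. The genes whose profile across the 12 libraries was most like theirs, by the root mean square distance of values centred on each gene's mean, were found by the same rule for each. C1s2, a complement component C1s gene with a close relative nearby, was nearest to both, at 0.33 from Mcoln2 and 0.40 from Mcoln3, with 10.25 ± 0.22 in null and 15.33 ± 0.18 in wild-type libraries. Mcoln2 and Mcoln3 were 0.46 from each other, rank 2 for Mcoln3 and rank 3 for Mcoln2. The others near Mcoln3 included Olfm4, which encodes the secreted glycoprotein olfactomedin 4 (distance 0.49, 3.11 ± 0.58 in null and 8.68 ± 0.90 in wild-type libraries), and Smgc, a submandibular gland secretory protein gene (distance 0.71). Those near Mcoln2 were Fut9, a fucosyltransferase gene (distance 0.40, 7.46 ± 0.72 in null and 11.33 ± 0.08 in wild-type libraries), C1rb (0.48) and Gpha2, a glycoprotein hormone subunit gene (0.49). This ranking rests on the contrast between genotypes and on the sets of libraries, and is given as a description.

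These mucolipin values come from whole tissue, in which fewer cells of a type and less RNA per cell cannot be told apart. The summed level of 7 luminal markers, which include the secreted products Pbsn, Msmb and Sbp, was 16.32 to 16.95 in null and 19.79 to 20.55 in wild-type libraries. Of these 7, 1 was called higher and 5 lower across the 12 libraries. Pbsn and Msmb were called lower between set means, where 6 of the 7 had an unadjusted p under 0.05. Of all genes tested, 34.1% were called higher and 31.8% lower across the 12 libraries, and 4.09% were called between set means. None of the luminal markers was at the floor in either genotype, and their part in the mucolipin values was not tested. The summed level of 5 lymphocyte markers was 8.12 to 8.97 in null and 7.83 to 9.48 in wild-type libraries. By limma 0 of the 5 were called in either fit, with 0 at an unadjusted p under 0.05 in each. Basal markers summed to 12.42 to 12.82 in null and 11.66 to 12.06 in wild-type libraries, with 4 of 5 called higher and 1 lower across the 12 libraries and 2 higher between set means. Adipocyte markers summed to 10.09 to 10.52 in null and 8.34 to 9.36 in wild-type libraries. Of these, 5 of 5 were called higher across the 12 libraries and 2 between set means (5 at an unadjusted p under 0.05). Of 5 macrophage markers, 2 were called higher and 0 lower across the 12 libraries and 0 between set means (2 at an unadjusted p under 0.05), with a summed level of 11.19 to 11.93 in null and 11.19 to 11.47 in wild-type libraries.

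Of the vanilloid channel genes, Trpv6 was lower and Trpv4 higher in null prostates, and Trpv2 overlapped between genotypes. Trpv6 encodes a calcium-selective channel of epithelia (ENSMUSG00000029868, chromosome 6, 41620624 to 41636405, minus strand). It was at 10.19, 10.31, 10.21, 8.34, 8.04 and 8.18 in null libraries 1 to 6. In wild-type libraries 1 to 6 it was at 10.79, 10.84, 10.89, 11.61, 11.63 and 11.59. The groups did not overlap, but null libraries 1 to 3 came close to wild-type libraries 1 to 3, and the null sets differed by 2.05 from each other. The difference of -2.01 (9.21 ± 1.13 in null and 11.22 ± 0.42 in wild-type libraries) ran from -0.60 to -3.42 over the 4 pairings of a null with a wild-type set, and it was -0.99 without null libraries 4 to 6 and -3.04 without null libraries 1 to 3.

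The null sets that divided Trpv6 differed in markers of other tissue as well. The summed level of the 8 seminal vesicle genes was 21.40 to 21.42 in the first null set (libraries 1 to 3) and 16.83 to 16.85 in the second, against 5.87 to 7.85 in wild-type libraries. Svs2 was at 21.03 in the first null set and 11.37 in the second, and Svs1, Svs5, Svs6 and Pate4 were likewise higher in the first. Svs3a (11.78 and 13.65), Svs3b (11.38 and 11.65) and Svs4 (14.58 and 16.43) were higher in the second, so the sum does not describe every gene. Of the 7 seminal vesicle genes tested, all were called higher across the 12 libraries (all genes: 34.1%) and 5 between set means (all genes: 2.15%). In wild-type libraries Svs3b and Svs6 had means of 2.78 and 2.75, under the 95th percentile of olfactory receptor genes. Of 5 epididymis and vas deferens markers, Crisp1 was at 14.23 in null libraries 1 to 3 and 3.61 in null libraries 4 to 6, with 2.09 in wild-type libraries, while Lcn5, Lcn8 and Rnase10 stayed under 2.86 in the mean of both genotypes. Adam7, the only one of the 5 tested, was at 8.74 ± 0.57 in null and 7.92 ± 0.62 in wild-type libraries (limma adjusted p = 0.0302 across the 12 libraries and 0.275 between set means). The summed level of these 5 was 8.29 to 14.30 in null and 7.34 to 8.62 in wild-type libraries. Their part in the Trpv6 values was not tested.

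Trpv4, which encodes a channel opened by osmotic swelling and stretch (ENSMUSG00000014158, chromosome 5, 114622152 to 114658421, minus strand), was at 8.01, 8.04, 7.83, 7.43, 7.55 and 7.56 in null libraries. In wild-type libraries it was at 6.53, 6.80, 6.57, 6.41, 6.61 and 6.38. Every null library lay above every wild-type library, with means of 7.74 ± 0.26 in null and 6.55 ± 0.15 in wild-type libraries and a difference of 1.19. The difference lay between 0.88 and 1.49 over the set pairings. Endothelial cells also express Trpv4. All 5 endothelial markers were called higher across the 12 libraries (all genes: 34.1%) and 0 between set means (5 at an unadjusted p under 0.05). Their summed level was 10.65 to 11.31 in null and 9.73 to 10.09 in wild-type libraries. Across the 12 libraries 5 of 5 fibroblast, 5 of 5 adipocyte and 4 of 5 basal markers were called higher as well. Of 5 smooth muscle markers 0 were called higher and 4 lower. The part of any of these cell types in the Trpv4 values was not tested. Next to Trpv4 on the chromosome, Fam222a fell by 2.46 (SE 0.29, limma adjusted p = 2.07e-08 across the 12 libraries and 0.0143 between set means), with 6.68 ± 0.31 in null and 9.14 ± 0.21 in wild-type libraries, while Gltp on its other side was at 10.29 ± 0.28 in null and 10.18 ± 0.16 in wild-type libraries.

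Trpv2, a channel gene prominent in macrophages (ENSMUSG00000018507, chromosome 11, 62574486 to 62600515, plus strand), was at 7.49, 7.60, 7.66, 6.93, 7.28 and 7.31 in null libraries. In wild-type libraries it was at 7.21, 7.11, 7.07, 7.47, 7.42 and 7.33. The genotypes overlapped, null libraries 1 to 3 being highest and wild-type libraries 1 to 3 nearly lowest. The difference of 0.11 was 0.42 with library totals and -0.14 with quantile normalization, and it was -0.10 without null libraries 1 to 3.

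Of the melastatin genes, Trpm7 was higher in null prostates, Trpm4 differed little and Trpm8 was at the floor. Trpm7 encodes a channel fused to a kinase that carries magnesium, zinc and calcium (ENSMUSG00000027365, chromosome 2, 126791565 to 126876230, minus strand). It was at 10.83, 10.73, 10.84, 10.27, 10.38 and 10.24 in null libraries and at 9.99, 9.98, 10.02, 9.50, 9.60 and 9.75 in wild-type libraries. The groups did not overlap, and libraries 1 to 3 were above libraries 4 to 6 in each genotype. The means were 10.55 ± 0.28 in null and 9.81 ± 0.22 in wild-type libraries. The difference of 0.74 was 0.30 at its smallest over the set pairings and 0.49 without null libraries 1 to 3.

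Trpm4 encodes a channel for sodium and potassium that intracellular calcium opens (ENSMUSG00000038260, chromosome 7, 45302632 to 45333780, minus strand). It was at 10.13, 10.21, 10.20, 10.04, 9.91 and 10.05 in null libraries and at 10.07, 10.08, 10.08, 9.82, 9.99 and 9.93 in wild-type libraries. The groups overlapped, with SDs of 0.11 in null and 0.10 in wild-type libraries and a difference in means of 0.09. A ribosomal protein pseudogene, Rpl14-ps1, lies within Trpm4 on the opposite strand and was at 13.09 in null and 14.05 in wild-type libraries, but it shares no exon base with Trpm4.

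Trpm8 encodes the receptor for cold and menthol, and its human counterpart is known for its expression in prostate epithelium (ENSMUSG00000036251, chromosome 1, 88277661 to 88389293, plus strand). It was at 2.13, 1.61, 2.55, 1.66, 1.06 and 1.71 in null libraries and at 1.44, 1.90, 2.28, 2.63, 2.05 and 1.75 in wild-type libraries. All 12 values were under 2.86, the 95th percentile of olfactory receptor genes, so Trpm8 was not distinguished from the floor at this depth and was not among the genes tested. An antisense gene shares 388 exon bases with it, and the strand setting of the counting was not given in the sources used here.

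Trpc1, which encodes a subunit of receptor-operated channels (ENSMUSG00000032839, chromosome 9, 95705082 to 95750375, minus strand), was at 4.90, 4.98, 5.32, 3.56, 3.70 and 3.91 in null libraries. In wild-type libraries it was at 4.00, 3.73, 3.84, 2.99, 3.11 and 2.80. Libraries 1 to 3 were higher than libraries 4 to 6 in each genotype, and null libraries 4 to 6 overlapped wild-type libraries 1 to 3. The means were 4.40 ± 0.76 in null and 3.41 ± 0.51 in wild-type libraries. The difference of 0.98 was 0.31 without null libraries 1 to 3 and 1.66 without null libraries 4 to 6. Like Trpm8, Trpc1 did not reach 4 in 6 libraries and was not tested, so 8 of the 10 members passed the filter on low values.

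Taken as a list, 5 of these 8 did not overlap between genotypes, 3 below and 2 above wild type, where 44.2% of all genes tested did not overlap (22.7% below and 21.5% above). In the fit across the 12 libraries 2 of the 8 were called higher (Trpv4 and Trpm7) and 3 lower (Mcoln2, Mcoln3 and Trpv6), beside a background of 65.9%. Between set means 0 were called higher, beside 2.15% of all genes, and 2 lower (Mcoln2 and Mcoln3), beside 1.93%. These counts repeat the contrast in which the genes were chosen and support nothing further. The median difference of the 8 was 0.03, against 0.05 for all genes tested.

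Levels were compared between genes per length of the longest transcript, as log2 of the value per kilobase. In null libraries the order was Mcoln1 (8.14 ± 0.16), Trpm4 (7.98 ± 0.11), Trpm7 (7.72 ± 0.28), Trpv6 (7.66 ± 1.13), Trpv4 (6.05 ± 0.26), Trpv2 (5.50 ± 0.27) and Mcoln2 (5.43 ± 0.49). The ranges of the first 4 of these overlapped from each to the next, as did those of the last 3. Within each null library, though, Trpm4 lay above Trpm7 and Trpv4 above Trpv2. In wild-type libraries it was Mcoln2 (10.02 ± 0.06), Trpv6 (9.68 ± 0.42), Mcoln1 (8.18 ± 0.09), Trpm4 (7.89 ± 0.10), Mcoln3 (7.35 ± 0.39), Trpm7 (6.98 ± 0.22), Trpv2 (5.39 ± 0.17) and Trpv4 (4.86 ± 0.15). There the range of Mcoln2 overlapped that of Trpv6, and the range of Mcoln3 those of Trpm4 and Trpm7. The ranges of the other neighbours in the order were separate. Within each wild-type library, though, Trpm4 lay above Mcoln3 and Mcoln3 above Trpm7. Mcoln3 in null libraries, near the floor, and Trpm8 and Trpc1, which did not pass the filter, were not placed. Both orders depended on the length used. With the length of all exons, Trpv6 (7.24) and Trpm7 (7.05) came before Mcoln1 (6.75) and Trpm4 (6.66) in null libraries. In wild-type libraries Mcoln3 (7.14 ± 0.39) then came before Mcoln1 (6.79 ± 0.09), which it overlapped, and Trpm4 (6.56 ± 0.10).

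Other genes of the same pathways were tested as lists. Of all genes tested, 34.1% were called higher and 31.8% lower across the 12 libraries, and 4.09% were called between set means. The median difference of all genes was 0.05. Among 18 further TRP channel genes 10 were tested, with 4 called higher and 1 lower across the 12 libraries, 0 between set means (3 at an unadjusted p under 0.05), and a median difference of 0.29. Trpm2, which encodes a channel opened by oxidative stress, was at 5.70 ± 0.28 in null and 4.41 ± 0.25 in wild-type libraries (difference 1.28, SE 0.33, limma adjusted p = 2.43e-05 across the 12 libraries and 0.0803 between set means). Trpv3, a warmth-sensing channel gene of skin, was at 5.58 ± 0.29 in null and 4.34 ± 0.40 in wild-type libraries (adjusted p = 0.000183 and 0.0925). Pkd2l1, a polycystin channel gene, was at 7.11 ± 0.13 in null and 6.36 ± 0.27 in wild-type libraries, and Trpc6, a diacylglycerol-gated channel gene, at 3.92 ± 0.31 in null and 4.81 ± 0.31 in wild-type libraries. Trpv5, the close relative and neighbour of Trpv6, was below the filter, with 2.68 ± 0.50 in null and 2.72 ± 0.52 in wild-type libraries.

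Genes that work with mucolipins in the lysosome were tested in the same way. The background was again 65.9% of all genes called across the 12 libraries and 4.09% between set means, with a median of 0.05. Of 17 other lysosomal and endosomal channel and transporter genes, all tested, 7 were called higher and 3 lower across the 12 libraries and 0 between set means (0 at an unadjusted p under 0.05), with a median of 0.18. Ostm1, encoding the partner of a lysosomal chloride exchanger, was at 10.04 ± 0.12 in null and 10.49 ± 0.07 in wild-type libraries. Slc38a9, an arginine sensor gene of the lysosome, was at 8.57 ± 0.08 in null and 8.09 ± 0.11 in wild-type libraries. Clcn6, a chloride exchanger gene, and Kcnma1, a calcium-activated potassium channel gene, differed by 0.60 and 0.52, and the 4 had adjusted p of 0.164 to 0.185 between set means. The two-pore channel genes Tpcn1 and Tpcn2, which answer the same phosphoinositide as mucolipins, differed by -0.01 and 0.21. All 8 genes of phosphoinositide supply and mucolipin binding were called across the 12 libraries, 4 in each direction, and 0 between set means (1 at an unadjusted p under 0.05). Pikfyve, the kinase gene that makes the activating phosphoinositide, was at 7.87 ± 0.31 in null and 6.54 ± 0.64 in wild-type libraries (difference 1.33, SE 0.43, adjusted p = 0.000681 and 0.113). Fig4, of the same enzyme complex, differed by -0.30 (0.02 with library totals), Pdcd6, a calcium-binding mucolipin partner, by -0.57 and Lamtor1, a lysosomal scaffold gene, by -0.70.

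Of 27 genes of lysosome biogenesis, a programme driven by TFEB, 8 were called higher and 9 lower across the 12 libraries (all genes: 65.9% called). Between set means 8 had an unadjusted p under 0.05, and 1 was called, lower (all genes: 4.09% called). The median was -0.15, against 0.05 for all genes. The 1 that fell was Tfec, a transcription factor gene of the TFEB family, with 3.73 ± 0.47 in null and 6.53 ± 0.18 in wild-type libraries (fell by 2.80, SE 0.32, limma adjusted p = 1.54e-07 across the 12 libraries and 0.0124 between set means). Tfeb itself was at 7.55 in null and 7.98 in wild-type libraries (adjusted p = 0.285 between set means). Sqstm1, an autophagy receptor gene, was at 12.57 ± 0.03 in null and 13.43 ± 0.05 in wild-type libraries (adjusted p = 2.85e-08 and 0.0873). The proton pump genes Atp6v0d1 and Atp6v1h differed by -0.85 and -0.45, and the membrane protein genes Lamp1 and Lamp2 by 0.60 and 0.85.

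Calcium handling beyond the TRP channels was examined with 3 lists. Of all genes tested, 34.1% were called higher and 31.8% lower across the 12 libraries, and 4.09% were called between set means. All 6 tested genes of store-operated entry were called across the 12 libraries, 2 higher and 4 lower, and 0 between set means (3 at an unadjusted p under 0.05). The channel gene Orai1 was at 8.05 ± 0.21 in null and 9.28 ± 0.24 in wild-type libraries (difference -1.23, SE 0.25, adjusted p = 3.01e-06 and 0.0546), Orai3 differed by -0.70, the regulator Saraf by -0.84 and the sensor gene Stim2 by 0.48. Of 18 tested genes of calcium release and pumps, 10 were called higher and 3 lower across the 12 libraries. Between set means 7 had an unadjusted p under 0.05, and 1 was called, higher. This was Ryr3, a ryanodine receptor gene, which rose by 3.32 (SE 0.55, adjusted p = 4.56e-06 and 0.0318), with 8.45 ± 0.87 in null and 5.13 ± 0.41 in wild-type libraries. Its null sets were at 7.66 and 9.24. Of the inositol trisphosphate receptor genes, Itpr1 and Itpr3 differed by 1.30 and 0.46, and Itpr2 by -0.79. Micu2, a gatekeeper gene of mitochondrial calcium uptake, differed by -0.60. Of 11 tested genes for calcium buffers and regulators of epithelial calcium channels, 4 were called higher and 2 lower across the 12 libraries. Between set means 5 had an unadjusted p under 0.05, and 1 was called, higher. Vdr, the vitamin D receptor gene, which controls Trpv6 in the intestine, rose by 1.36 (SE 0.27, adjusted p = 7.84e-07 and 0.0479), with 8.51 ± 0.24 in null and 7.15 ± 0.15 in wild-type libraries. Sgk1, a kinase gene, was at 14.26 ± 0.24 in null and 12.80 ± 0.21 in wild-type libraries (adjusted p = 0.0575 between set means), Anxa2 differed by 0.67 and Rab11a by -0.65. S100g, which encodes the calcium buffer calbindin-D9k, did not pass the filter, with 4.01 ± 0.43 in null and 2.09 ± 0.85 in wild-type libraries.

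**Figure D4:**
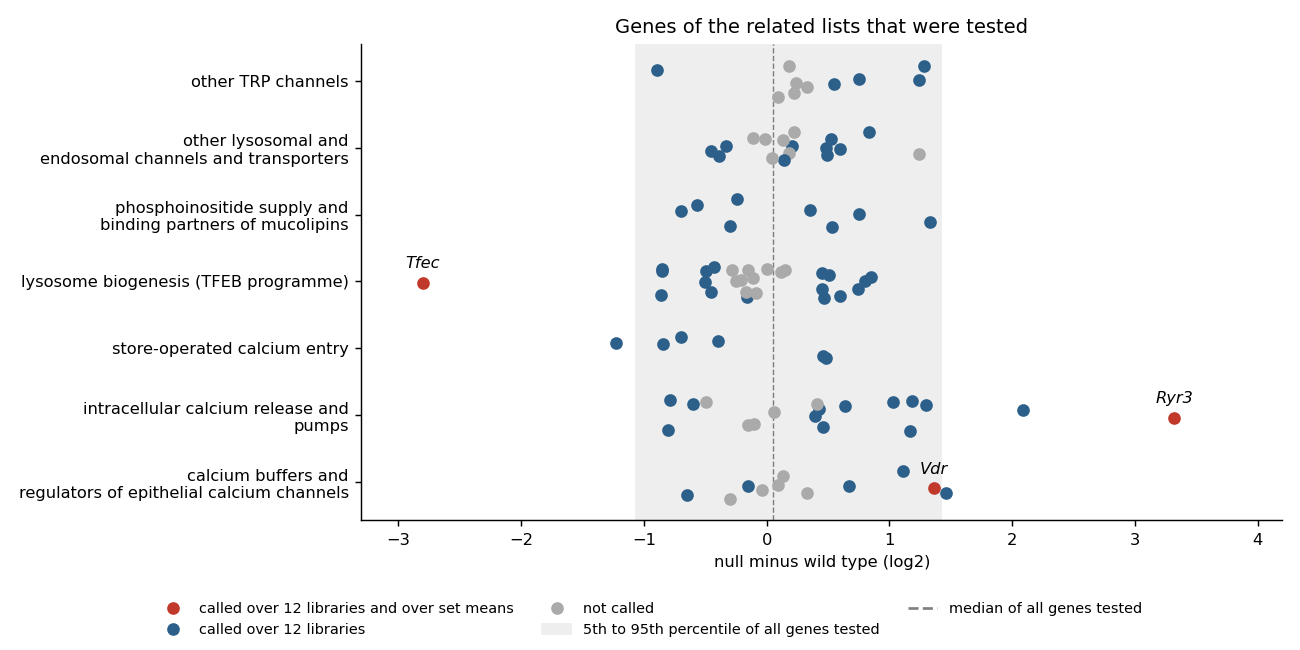
Difference (null minus wild type, log2) of each tested gene of the 7 related lists, coloured by call, with the 5th to 95th percentile of all genes tested (-1.06 to 1.42) shaded and their median (0.05) dashed. Tfec (-2.80), Ryr3 (3.32) and Vdr (1.36) were called in both fits.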

How the data were processed

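Poly-A RNA was prepared with a TruSeq kit and sequenced on a HiSeq2000, per the labels' protocols. Tools and builds listed in the submitters' processing notes, with no role, were CASAVA 1.8.2, TopHat, DESeq and Cufflinks, and mm9 and GRCm38.p2. Strand setting and treatment of multiply matching reads: not given in the sources used here. The deposited table holds values for 39179 Ensembl genes, from -0.28 to 21.24. They were read as log2 from their range and, from their similar quartiles, as scaled between libraries by the authors, by a method not given in the sources used here. Of the genes, 37693 (96.2%) matched GENCODE M21 (GRCm38). A floor near 2 compresses low values. High linear values were multiplied by a factor and shifted by an offset, both fitted per library. They then lay within 0.1 of whole numbers for 100% of the values used in that fit. Of the higher values, which were not used in it, 96.6% to 99.3% did so. The factors gave the depth estimates. Counts of low genes could not be recovered, so no count test was run.

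The 16197 genes reaching 4 in 6 or more libraries entered limma 3.58.1 under R 4.3.3 (two-sided, with trend, Benjamini-Hochberg over all genes tested, no further pseudocount), over 12 libraries and over the means of libraries 1 to 3 and 4 to 6. SE in the text is that over the set means. Python 3.11.15 served for summaries. Members, lists and sets were chosen with earlier results of these data known. Named genes are the 10 members, up to 4 genes per list by lowest limma p in the 12-library fit, list genes called over the set means, the nearest profiles, and neighbours of the members. Other genes are named after their values were seen. Promoter sequences are from RefSeq (GRCm38.p6), with windows for 9 of the 10 members. The targeted gene is not reported here. Alternatives were other scalings, filters, weights, a random set block, and leaving out each library or set.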

Additional observations from a re-analysis of the deposited data

Results flagged for a closer look

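Among 78 groups of 6 libraries checked (39 genes in 2 genotypes), 2 held a library set apart from the other 5. Chance gives about 1 in 20 groups for independent values, a rate that need not hold here, where each group forms 2 sets. Neither of the 2 groups flagged belongs to the mucolipins or the other members. Wild-type library 1 had the highest value of Slc38a9, 8.30, with the next at 8.09. Wild-type library 2 had the highest value of Vdr, 7.44, with the next at 7.17, which still lies under the null mean of 8.51.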

How the results depend on the processing

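The set means decide most calls: over them 662 genes were called in place of 10670 (5041 at an unadjusted p under 0.05), 2 members in place of 5, and of the lists 0 other TRP channels, 0 lysosomal channels, 0 phosphoinositide genes, 1 lysosome biogenesis gene, 0 store-operated entry genes, 1 calcium release gene, 1 calcium buffer gene and 0 neighbours. With the set as a random block the counts were 5052 genes, 1 other TRP channel, 2 lysosomal channels, 4 phosphoinositide genes, 3 store-operated entry genes and 1 neighbour. Library totals gave 8 members called (5 higher and 3 lower, with 69.3% of all genes called), 9 other TRP channels, 4 phosphoinositide genes, 10 calcium buffer genes and 6 neighbours, with a split over all genes of 8611 higher and 2608 lower against 5518 and 5152. Without the 50 most abundant genes the split was 6804 and 4034, and with quantile normalization 4648 and 5559. The filter at 6 left 2 other TRP channels and 7 neighbours called. Without null libraries 4 to 6, 8 members were called (4 higher and 4 lower), with 69.6% of all genes called. Without null libraries 1 to 3, 4 phosphoinositide genes and 4 neighbours were called, and without wild-type libraries 4 to 6, 4 and 5. Over all 26 alternatives Mcoln2 lay between -5.04 and -4.15, Mcoln3 between -5.57 and -4.87, Trpv6 between -3.04 and -0.99, Trpv4 between 0.94 and 1.5 and Trpm7 between 0.49 and 1.06. Fig4 reversed to 0.02 with library totals. Tfec, Ryr3, Vdr and Fam222a stayed called in all 26. The 5 genes most like Mcoln3 over the set means shared 5 with those over libraries, and those most like Mcoln2 shared 3. No cause of these shifts was tested. No paired analysis was possible because the labels give no replicate numbers shared between genotypes. Depth limits Trpm8, which lies at the floor, and the null values of Mcoln3, which lie close above it.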
